A study of Mus musculus with 6 samples.

Results

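The 7 genes described here belong to paralog groups 1 to 3 of the Hox family: Hoxb1 and Hoxd1 of group 1, Hoxa2 and Hoxb2 of group 2, and Hoxa3, Hoxb3 and Hoxd3 of group 3. They were chosen by name from the 56805 genes of a count table, and all 7 were among the 21972 genes that passed the filter on low counts. The table comes from RNA sequencing of mouse motor neurons of the cervical and the thoracic spinal cord at e12.5, with 3 libraries for cervical and 3 for thoracic motor neurons. Both regions carry the genotype label control and were left untreated. The sources used here do not give how the motor neurons were isolated, the strain, any reporter allele or the number of embryos behind a library. The series title names Hox5 genes and motor neuron diversity as the subject of the study.

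Hox genes encode homeodomain transcription factors that give cells their position along the body axis, and the order of the genes on the chromosome matches the order of their anterior limits of expression. Genes of groups 1 to 3 lie at the end of the HoxA, HoxB and HoxD clusters that is switched on first. They reach farthest forward, into the hindbrain, where they pattern rhombomeres, cranial motor nuclei and the neural crest of the pharyngeal arches. Retinoic acid switches them on, and their proteins bind DNA together with the TALE homeodomain proteins Pbx, Meis and Pknox. Expression of these genes continues behind their anterior limits into the spinal cord, the tissue sampled here.

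Of the 7 genes, 5 had higher values in all 3 cervical libraries than in any thoracic one, against 6.25% of all tested genes, with Hoxa2 the most different. Hoxa2 was 2.12-fold and Hoxa3 1.51-fold higher in cervical libraries, and both passed the test across all genes, as did 0.191% of all genes in that direction. Hoxb2, Hoxb3 and Hoxd3 stood 1.27 to 1.41-fold higher on average in cervical libraries and did not pass it. A fit with the replicate number as a block called Hoxb3 and Hoxd3 too, and 0.573% of all genes in that direction. The group 1 genes Hoxb1 and Hoxd1 were scarce, and their values overlapped between the regions.

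On the mm39 build the genes lie in 3 clusters. Hoxa2 lies at chr6:52139397-52141811 on the minus strand and Hoxa3 at chr6:52146042-52190316, its neighbour 4.23 kb away. Hoxb3 lies at chr11:96214152-96238756, Hoxb2 at chr11:96241351-96244838 and Hoxb1 at chr11:96256578-96259082, all on the plus strand, with gaps of 2.59 kb and 11.7 kb between them. Hoxd3 lies at chr2:74542271-74578786 and Hoxd1 at chr2:74593324-74595486, also on the plus strand and 14.5 kb apart. The deposited models of Hoxa3, Hoxb3 and Hoxd3 hold 7, 7 and 6 separate exon blocks.

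The 250 bases before the RefSeq start sites of Hoxa2, the gene with the largest regional difference, and of Hoxb1, known in mouse for an autoregulatory element just upstream of the gene, were read from promoter windows of the GRCm38.p6 build. Hoxa2 is shown from chr6:52164832-52165081 on the minus strand and Hoxb1 from chr11:96365508-96365757 on the plus strand. Capitals mark the letters TGATNNAT, a sequence bound by Hox with Pbx proteins, and TGACAG, one bound by Meis and Pknox proteins, on either strand.
Hoxa2: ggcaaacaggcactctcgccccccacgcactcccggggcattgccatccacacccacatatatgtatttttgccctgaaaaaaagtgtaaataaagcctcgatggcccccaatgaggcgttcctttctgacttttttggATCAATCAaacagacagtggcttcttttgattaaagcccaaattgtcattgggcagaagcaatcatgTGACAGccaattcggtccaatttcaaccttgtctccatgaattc
Hoxb1: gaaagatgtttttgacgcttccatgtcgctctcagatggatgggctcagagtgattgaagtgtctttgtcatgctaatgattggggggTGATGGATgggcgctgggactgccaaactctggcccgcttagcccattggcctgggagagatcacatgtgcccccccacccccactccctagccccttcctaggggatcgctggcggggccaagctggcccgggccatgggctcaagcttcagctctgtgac
The Hoxa2 window held one match of each motif, the TGATNNAT match starting 111 bases and the TGACAG match 44 bases before the start site. The Hoxb1 window held TGATGGAT, starting 162 bases before the start site. No match overlapped another. Of the 5 members with a window, 2 held TGATNNAT (Hoxa2 and Hoxb1) and 2 held TGACAG (Hoxa2 and Hoxa3), counted over windows of 250 bases before to 50 after the start. Of 32851 such mouse windows, 8.85% held TGATNNAT and 19.2% held TGACAG. A match of letters is not evidence of binding.

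Deposited counts summed to between 32103071 and 33790634 per library, apart from thoracic replicate 1 with 53186131. In all 7 genes that library held the highest of the 3 thoracic values, and the SD of each gene was larger among thoracic than among cervical libraries. The labels call the replicates biological without tying them to embryos, litters or pools, and p-values reflect only how far these libraries differ. Across all genes, libraries of the same replicate number deviated together, and a fit with that number as a block is therefore given where it changes a call.

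Motor neuron genes were present in every library, with a marker list of 8 genes from Mnx1 to Prph summing to 309 to 635 CPM (read counts scaled to a common library size with TMM factors) in cervical and 372 to 579 CPM in thoracic libraries. Genes of other neural cells were detected too. A list of 8 genes set down for dorsal interneurons summed to 927 to 986 CPM for cervical and 727 to 821 CPM for thoracic libraries, without overlap. Most of that sum came from Pax2, at means of 543 CPM for cervical and 433 CPM for thoracic libraries, and from Foxp2. Foxp2 had means of 299 and 237 CPM, with overlap between the regions. The cervical and thoracic means were 57.3 and 49.6 CPM for Pou4f1, 18.7 and 15.2 for Lbx1 and 0.164 and 0.0742 for Ptf1a. They were 23.3 and 24.6 CPM for Barhl1, 7.46 and 15.7 for Lmx1b and 4.17 and 4.94 for Tlx3. The higher cervical sum is thus mainly that of Pax2 and Foxp2 and was not shared by every gene of the list. Of the 7 tested genes of the list, only Pax2 was called higher in cervical libraries, and Lmx1b was called higher in thoracic ones. The 6 neural progenitor genes summed to 387 to 485 CPM for cervical and 479 to 583 CPM for thoracic libraries, and the 8 genes of V0 to V3 interneurons to 413 to 441 and 386 to 427 CPM, with 1 of them called higher in cervical and 2 in thoracic libraries. Dorsal root ganglion genes, with 6 in the list, summed to 24.0 to 47.6 CPM for cervical and 16.5 to 25.7 CPM for thoracic libraries. Mesenchyme genes, with 7 in the list, spanned 13.9 to 151 CPM for cervical and 85.4 to 158 CPM for thoracic libraries. Genes of Schwann cells and neural crest, endothelium and erythroid cells overlapped between the regions in their sums as well. No listed marker was at 0 in all libraries. With the replicate number as a block, 3 of the 5 tested ganglion genes were called higher in cervical libraries, where region alone called 0 and DESeq2 called 3, and their median log2 fold change was 0.97. The block also called 2 of the 7 tested genes of the dorsal interneuron list higher in cervical and 1 in thoracic libraries. It called 2 of 8 motor neuron genes, 2 of 6 progenitor genes and 2 of 7 mesenchyme genes higher in thoracic libraries. Region alone called 0 in each of these lists, and DESeq2 called 1, 2 and 0 in that direction. Over all genes, region alone called 0.191% toward cervical and 0.350% toward thoracic, and the block 0.573% and 1.39%. DESeq2 called 126 and 282 of 21972 genes. The part of these cell types in the differences below was not tested. In such bulk samples, fewer cells of a type and less RNA per cell cannot be told apart. The 5 genes listed for hindbrain branchial and visceral motor neurons summed to 12.48 to 17.9 CPM for cervical and 14.9 to 21.3 CPM for thoracic libraries. Of these, Phox2a stood at 0.234 to 1.05 CPM for cervical and 1.02 to 2.74 CPM for thoracic libraries, and Tbx20 at 0.264 to 1.16 and 0.0613 to 0.463 CPM.

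**Figure D1:**
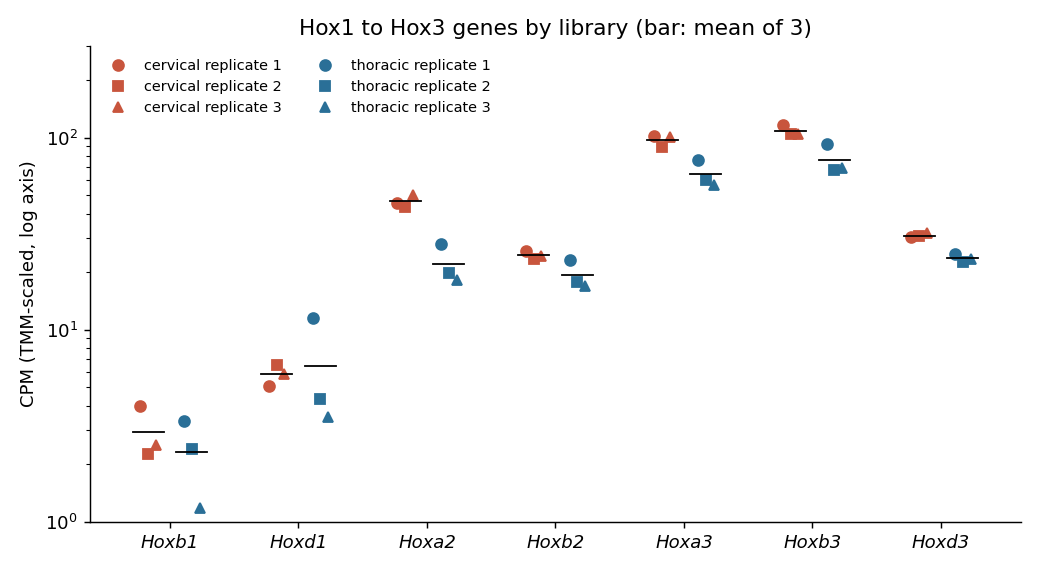
TMM-scaled CPM of each gene, on a log axis, in the 3 cervical (left) and 3 thoracic (right) libraries, with the mean of each region as a bar. Hoxa2, Hoxb2, Hoxa3, Hoxb3 and Hoxd3 show no overlap between the regions, and thoracic replicate 1 is the highest thoracic library in every gene.

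The 5 genes with all cervical values above all thoracic ones compare with 6.25% of all tested genes that had this order. By edgeR's quasi-likelihood test, adjusted over all genes after Benjamini and Hochberg, 2 of the 7 genes were called higher in cervical libraries (Hoxa2 and Hoxa3), against 0.191% of all genes, and none was called higher in thoracic libraries, against 0.350%. None of the 7 reached an unadjusted p of 0.05 toward thoracic either, against 1141 of all 21972 genes. DESeq2 and limma-voom likewise called 0 of the 7 in that direction, against 282 and 63 of all genes. Blocking on the replicate number, 4 of the 7 were called higher in cervical libraries (Hoxa2, Hoxa3, Hoxb3 and Hoxd3), against 0.573% of all genes, and none higher in thoracic ones, against 1.39%. With region alone, the count of 2 became 0 without cervical replicate 3 or without thoracic replicate 2. It was 1 without cervical replicate 1, cervical replicate 2 or thoracic replicate 3, and 3 without thoracic replicate 1. The median log2 fold change of the 7 genes was 0.39, beside 0.0083 for all tested genes.

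Hoxa2, the selector gene of the second pharyngeal arch and the only Hox gene known to act in rhombomere 2, stood at 45.7, 43.5 and 50.2 CPM in cervical libraries and at 27.8, 19.7 and 18.2 CPM in thoracic ones. The lowest cervical library stood 15.8 CPM above the highest thoracic one. The means were 46.5 ± 3.38 CPM for cervical and 21.9 ± 5.15 CPM for thoracic libraries (SD, n = 3 each). The log2 fold change, cervical over thoracic, was 1.08 (SE 0.14, edgeR adjusted p = 0.0136). The 95% interval of the fold change ran from 1.70 to 2.63. The call was lost without cervical replicate 3 (edgeR adjusted p = 0.0667) and without thoracic replicate 2 (0.0535), with log2 fold changes of 1.02 and 1.01.

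Hoxb2, the other group 2 gene, which acts in facial motor neuron development in mouse, stood at 25.6, 23.4 and 24.3 CPM in cervical libraries and at 22.9, 17.8 and 16.9 CPM in thoracic ones. The regions did not overlap, but thoracic replicate 1 lay only 0.444 CPM below the lowest cervical library. The means were 24.4 ± 1.13 and 19.2 ± 3.24 CPM in cervical and thoracic libraries, and the log2 fold change of 0.34 (SE 0.12) did not pass (edgeR adjusted p = 0.414, blocked 0.121). The interval of its fold change was 1.05 to 1.53 before any adjustment for the number of genes.

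Group 3 genes act together in the hindbrain and neck, where Hoxa3 is required for the thymus and parathyroid and, with Hoxb3 and Hoxd3, for cranial nerves and cervical vertebrae in mouse. They made up most of the signal of the 7 genes, with 74.8 ± 0.769% of their summed CPM in cervical and 77.0 ± 2.17% in thoracic libraries. Hoxa3 stood at 102.0, 89.3 and 100.1 CPM in the cervical libraries, against 76.1, 60.4 and 56.7 CPM in the thoracic ones. No thoracic library reached the lowest cervical one. Its log2 fold change was 0.59 (SE 0.10, edgeR adjusted p = 0.0394), at means of 97.1 ± 6.89 CPM for cervical and 64.4 ± 10.3 CPM for thoracic libraries. When each library was left out in turn, the call of Hoxa3 held only without thoracic replicate 1 (edgeR adjusted p = 0.0063). Without cervical replicates 1, 2 and 3 the adjusted p was 0.0588, 0.0688 and 0.167, and without thoracic replicates 2 and 3 it was 0.136 and 0.135.

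Hoxb3, a regulator of progenitor identity in the caudal hindbrain, was the most abundant of the 7 genes by counts. It stood at 116.0, 103.9 and 104.1 CPM in cervical libraries and at 92.7, 67.5 and 69.7 CPM in thoracic ones, again without overlap and with thoracic replicate 1 nearest to the cervical libraries. The means were 108.0 ± 6.96 CPM for cervical and 76.6 ± 14.0 CPM for thoracic libraries. Its log2 fold change of 0.49 (SE 0.11) did not pass with region alone (edgeR adjusted p = 0.109). It passed with the block (0.00218) and without thoracic replicate 1 (edgeR adjusted p = 0.00658). The difference of Hoxb3 within replicate numbers 1, 2 and 3 was 1.25-fold, 1.54-fold and 1.49-fold.

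Hoxd3, which shapes the first cervical vertebrae, had the smallest spread of the 7 genes. It stood at 30.3, 30.6 and 31.7 CPM in the cervical libraries, against 24.8, 22.5 and 23.4 CPM in the thoracic ones, with a coefficient of variation of 2.35% and 4.86%. No thoracic library reached the lowest cervical one. The log2 fold change was 0.39 (SE 0.08, edgeR adjusted p = 0.0921, blocked 0.0379). Its 95% fold interval of 1.15 to 1.49 was unadjusted.

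**Figure D2:**
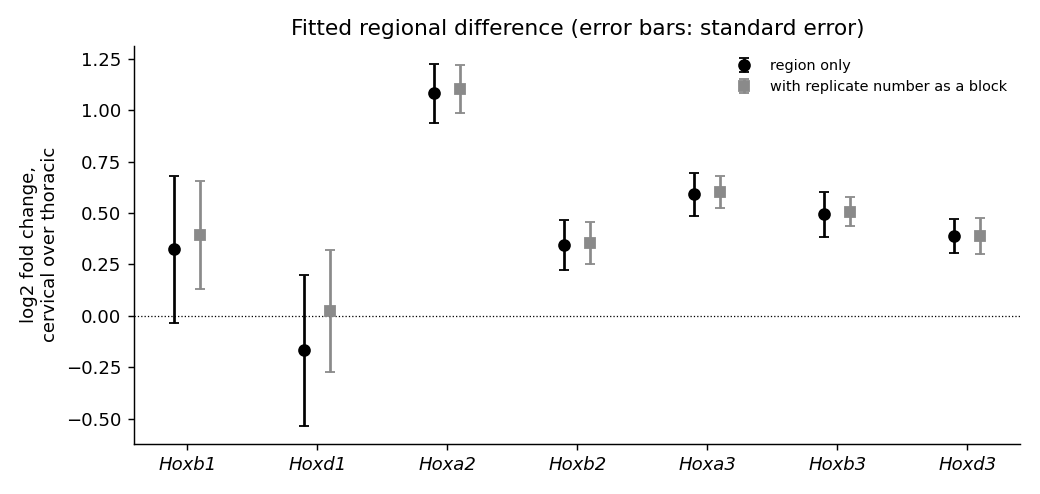
Fitted log2 fold change, cervical over thoracic, of each gene with its standard error, from the fit with region only (circles) and from the fit that adds the replicate number as a block (squares). Hoxa2 lies highest at 1.08 and 1.10, and the error bars of Hoxb1 and Hoxd1 are the widest.

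The group 1 genes were the scarcest. Hoxb1, which specifies facial motor neurons in rhombomere 4, had 129, 77 and 80 reads in cervical libraries and 179, 78 and 38 reads in thoracic ones. These counts correspond to 3.99, 2.26 and 2.50 CPM for cervical and 3.34, 2.39 and 1.17 CPM for thoracic libraries. The regions overlapped, and the highest and lowest values came from cervical replicate 1 and thoracic replicate 3. The log2 fold change was 0.32 (SE 0.36, edgeR adjusted p = 0.904), and its fold interval of 0.725 to 2.16 includes differences in either direction.

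Hoxd1, known in mouse for its role in pain-sensing neurons of the dorsal root ganglion, stood at 5.08, 6.56 and 5.88 CPM in cervical libraries and at 11.5, 4.35 and 3.52 CPM in thoracic ones. Thoracic replicate 1 alone was above all cervical libraries, while the other two thoracic libraries were below all of them. The 11.5 CPM of that library rest on 619 reads. The log2 fold change was -0.17 (SE 0.37, edgeR adjusted p = 0.960), and without thoracic replicate 1 it was 0.57 (edgeR adjusted p = 0.554). Dorsal root ganglion markers summed to 20.7, 25.7 and 16.5 CPM in thoracic replicates 1, 2 and 3, and their part in the Hoxd1 values was not tested.

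**Figure D3:**
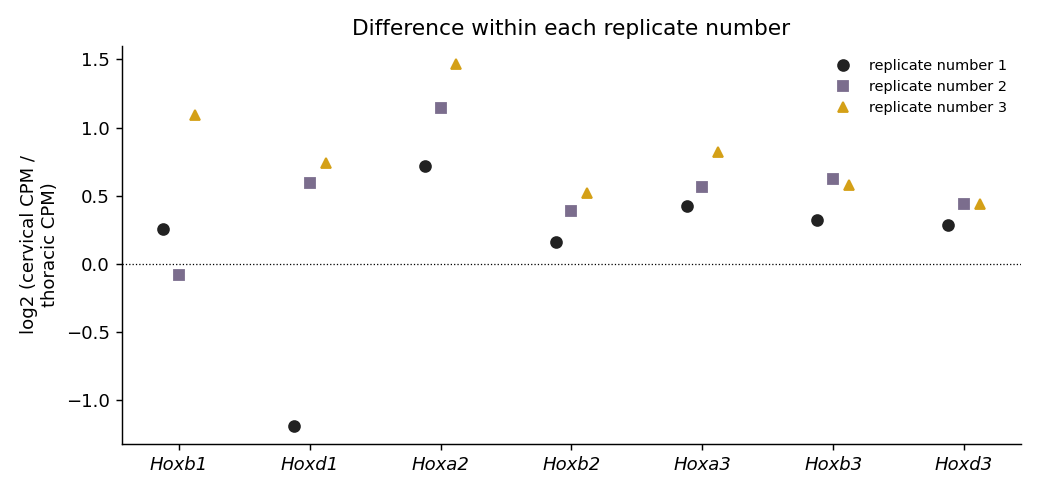
Log2 ratio of cervical to thoracic CPM within each replicate number, for each gene. All 3 points lie above 0 for Hoxa2, Hoxb2, Hoxa3, Hoxb3 and Hoxd3, which follows from their lack of overlap between the regions. Replicate number 1 gives the lowest point in every gene except Hoxb1.

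The 5 genes without overlap between the regions are by that fact higher in the cervical library of every replicate number, so their direction here is no further result. Replicate number 1 gave the lowest ratio of cervical to thoracic CPM in 6 of the 7 genes. For Hoxa2 the cervical library was 1.65-fold, 2.21-fold and 2.76-fold above the thoracic library of replicate numbers 1, 2 and 3. For Hoxa3 the ratios were 1.34, 1.48 and 1.77, and for Hoxd3 they were 1.22, 1.36 and 1.36. Hoxd1 ran from 0.44 in replicate number 1 to 1.51 and 1.67 in replicate numbers 2 and 3.

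Within paralog group 2 the ratio between the genes was higher in every cervical library than in any thoracic one. The CPM of Hoxa2 was 1.78, 1.86 and 2.07 times that of Hoxb2 in cervical libraries and 1.21, 1.11 and 1.07 times in thoracic ones. The change corresponds to a log2 difference of 0.75. The exact two-sided permutation test gave p = 0.10, the smallest that 3 against 3 libraries allow, and 0.50 after adjustment over the 5 ratios compared. Within group 3 the ratios overlapped between the regions. The ratio of Hoxa3 to Hoxb3 was 0.859 to 0.962 in cervical and 0.814 to 0.895 in thoracic libraries (log2 difference 0.09, exact permutation p = 0.30). The ratio of Hoxa3 to Hoxd3 was 2.91 to 3.37 and 2.43 to 3.07 (0.21, exact permutation p = 0.20), and that of Hoxb3 to Hoxd3 was 3.28 to 3.83 and 2.98 to 3.74 (0.12, exact permutation p = 0.50). For Hoxb1 to Hoxd1 the ratio spanned 0.344 to 0.787 in cervical and 0.289 to 0.549 in thoracic libraries (0.37, exact permutation p = 0.50). A p above the threshold does not show that these ratios are equal in both regions.

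**Figure D4:**
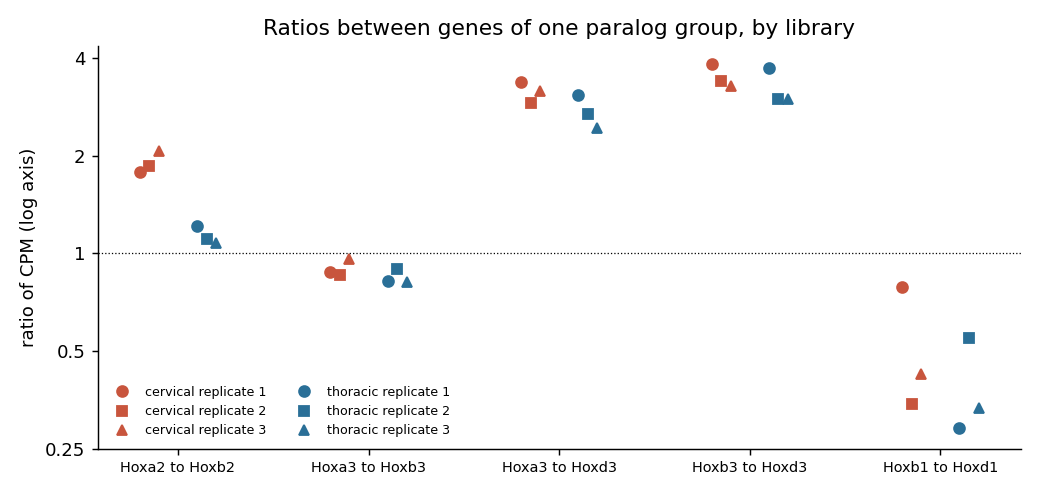
Ratio of CPM between 2 genes of the same paralog group in each library, on a log axis, cervical left and thoracic right of each label. The ratio of Hoxa2 to Hoxb2 is 1.78 to 2.07 in cervical and 1.07 to 1.21 in thoracic libraries, and the other 4 ratios overlap between the regions.

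Summed over the 7 genes, cervical libraries held 316 ± 14.9 CPM and thoracic libraries 214 ± 38.8 CPM. By cluster, the 2 HoxA genes summed to 144 ± 9.45 CPM for cervical and 86.3 ± 15.4 CPM for thoracic libraries. The 3 HoxB genes summed to 135 ± 8.95 and 98.1 ± 18.0 CPM. The 2 HoxD genes summed to 36.7 ± 1.16 and 30.05 ± 5.46 CPM, with thoracic replicate 1 at 36.4 CPM. The HoxA genes took 45.5 ± 1.48% of the summed CPM in cervical and 40.2 ± 0.833% in thoracic libraries.

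Levels of different genes were compared per kilobase of deposited exon length. In cervical libraries Hoxa2 and Hoxb3 led with 26.2 ± 1.90 and 25.4 ± 1.64 CPM per kb, and their ranges overlapped. Hoxa3 followed at 16.2 ± 1.15 CPM per kb, clear of both neighbours in the order. Hoxd3 and Hoxb2 came next with overlapping ranges of 7.23 to 7.56 and 6.70 to 7.34 CPM per kb, then Hoxd1 at 3.14 and Hoxb1 at 1.26 CPM per kb. In thoracic libraries Hoxb3 led alone at 18.03 ± 3.29 CPM per kb. Hoxa2 was second at 12.3 ± 2.90 and overlapped Hoxa3 at 10.7 ± 1.71 CPM per kb. The order of the other 4 was as in cervical libraries, with overlapping ranges for Hoxd3 and Hoxb2 and for Hoxb2 and Hoxd1.

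Shared exons limit this order. On the opposite strand, Hoxb3os covers 53.1% of the exon bases of Hoxb3 and 27.3% of those of Hoxb2, and on the same strand Gm28230 covers 53.1% of Hoxd3 and Hoxd4 a further 9.26%. The sources used here do not give how reads in shared bases were assigned. Gm28308, on the same strand, shares 267 of its 752 exon bases with Hoxa2 and 482 with Hoxa3. Its count was 0 in every library, so no read in those shared bases was counted for it. Whether such reads were kept for the Hox genes or dropped is not given. As a bound on the effect of length, the whole CPM of each gene was also divided by only those exon bases that it shares with no gene on either strand. No reads were recounted, so any reads from shared bases stay in these values. Hoxb3 then had 54.2 ± 3.49 CPM per kb of unshared exon in cervical libraries, against 30.8 ± 2.24 for Hoxa2, 22.2 ± 1.57 for Hoxa3 and 19.8 ± 0.465 for Hoxd3. In thoracic libraries Hoxd3, Hoxa3 and Hoxa2 had 15.1 ± 0.736, 14.7 ± 2.34 and 14.5 ± 3.41 CPM per kb of unshared exon, values within an SD of each other. With only bases shared on the same strand left out, Hoxa2 led in cervical libraries at 30.8 CPM per kb, ahead of Hoxb3 at 25.4. Hoxd3 followed at 19.6 and Hoxa3 at 17.6 CPM per kb. The places of Hoxd3, Hoxa2 and Hoxa3 in the order, and the lead in cervical libraries, thus depend on the length used.

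Partner genes that share exons with the 7 had the following values, and without the strand setting of the counting their reads and those of the Hox genes cannot be told apart in the shared bases. Hoxb3os stood at 12.8 ± 1.43 CPM for cervical and 9.73 ± 1.495 CPM for thoracic libraries (fitted log2 fold change 0.39, edgeR adjusted p = 0.454). Hoxa3 shares bases with the antisense genes Hoxaas2, Hoxaas3, 5730596B20Rik and Gm29430, whose log2 fold changes were 0.82, 0.48, 0.61 and 0.36. None of those 4 passed (edgeR adjusted p of 0.122, 0.105, 0.0573 and 0.552), and the block called Hoxaas2, Hoxaas3 and 5730596B20Rik (0.00543, 0.0159 and 0.00211). Hoxd3os1, antisense to Hoxd3, was more abundant than Hoxd3 itself, at 55.3 ± 5.47 CPM for cervical and 51.5 ± 1.54 CPM for thoracic libraries, and its log2 fold change was 0.10, which did not pass (edgeR adjusted p = 0.840). Haglr, which shares 21 bases with Hoxd3, had a log2 fold change of 0.36 and Gm28230 one of 0.18, at edgeR adjusted p of 0.358 and 0.847. Gm28308, on the strand of Hoxa2 and Hoxa3, had a count of 0 in every library. The members of group 1 share no exon bases with another listed gene.

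The regional difference did not change evenly along the clusters. In the HoxA cluster the log2 fold changes were 1.08 for Hoxa2 and 0.59 for Hoxa3, beside 0.94, 0.67, 0.46 and 0.12 for Hoxa4 to Hoxa7 and -1.30 for Hoxa9. In the HoxB cluster they were 0.32, 0.34 and 0.49 for Hoxb1 to Hoxb3, beside 0.52 to 0.93 for Hoxb4 to Hoxb9. In the HoxD cluster they were -0.17 for Hoxd1 and 0.39 for Hoxd3, beside 0.16 for Hoxd4, 0.05 for Hoxd8 and -1.33 (SE 0.80) for Hoxd9. Of 7 genes of groups 4 and 5, 5 passed the test toward cervical (6 with the block), against 0.191% of all genes (0.573% with the block), and the list had a median log2 fold change of 0.68. Among 8 genes of groups 6 to 8, 3 were called higher in cervical libraries (5 with the block) and the median was 0.49. Among 4 genes of group 9, 2 were called higher in thoracic libraries with either fit, against 0.350% of all genes (1.39% with the block), with a median of -1.31, and the block called Hoxb9 higher in cervical libraries (edgeR adjusted p = 0.00176). The differences between paralog groups were not tested.

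**Figure D5:**
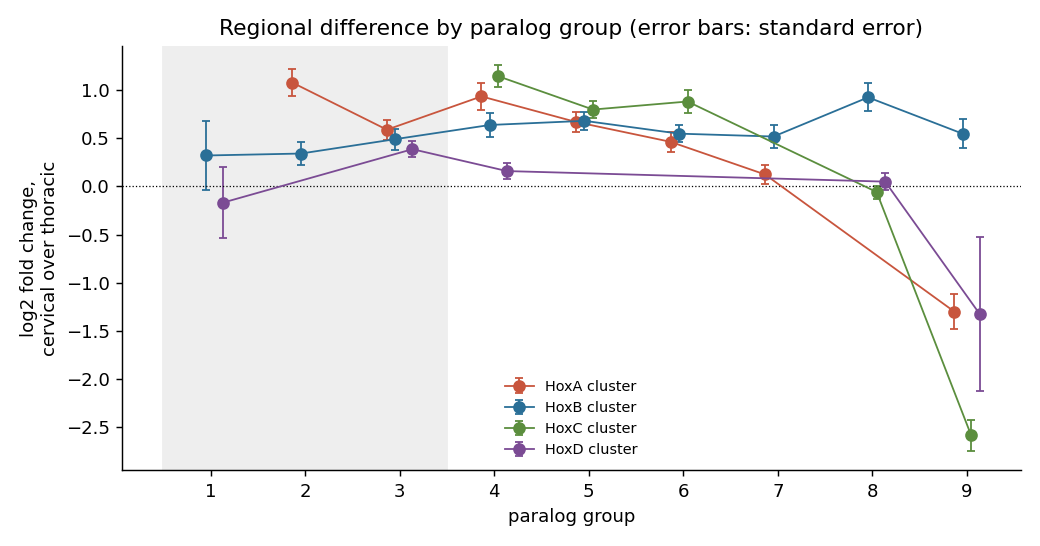
Log2 fold change, cervical over thoracic, with its standard error, of 26 Hox genes by paralog group, with genes of one cluster joined by a line and groups 1 to 3 shaded. Hoxa2, at 1.08, is the highest point in the shaded part, and 3 of the 4 genes of group 9 lie below 0.

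Genes that act with the Hox proteins or upstream of the Hox genes were listed as well. None of 9 TALE cofactor genes was called by edgeR or limma-voom, with 1 at an unadjusted p below 0.05 and 1 called by DESeq2, each higher in cervical libraries. The median log2 fold change of that list was 0.07. Of 17 inducers and regulators, 13 were tested and 0 called with region alone by edgeR or limma-voom. An unadjusted p below 0.05 was reached by 4 toward cervical and 2 toward thoracic, and DESeq2 called 2 toward cervical. Beside both lists, 719 of all 21972 tested genes had an unadjusted edgeR p below 0.05 toward cervical and 1141 toward thoracic. DESeq2 called 126 of all tested genes toward cervical. With the block 3 of the 13 were called, all higher in cervical libraries, against 0.573% of all genes, and they are named here after their values were seen. The retinoic acid synthesizing enzyme gene Aldh1a2 had a blocked edgeR adjusted p of 1.7e-05, the retinoic acid degrading enzyme gene Cyp26a1 one of 0.0258 and the retinoic acid receptor gene Rarb one of 0.00049. Aldh1a2 stood at 132, 12.54 and 50.4 CPM in cervical libraries and at 23.0, 4.35 and 7.77 CPM in thoracic ones, a wide spread with overlap between the regions. Rarb stood at 57.4, 45.3 and 44.9 CPM in cervical libraries and at 38.8, 22.2 and 23.5 CPM in thoracic ones. As in the Hox genes described here, thoracic replicate 1 held the highest thoracic value of Rarb. The most abundant gene of the list, the retinoic acid receptor gene Rara, stood at 111 ± 13.0 CPM for cervical and 98.5 ± 8.76 CPM for thoracic libraries.

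Of 9 genes known in mouse to lie downstream of Hox1 to Hox3 proteins, 7 were tested and 1 was called, higher in thoracic libraries, against 0.350% of all genes. This was Gata3, which acts below Hoxb1 and Gata2 in facial motor neurons and also marks V2b interneurons. It stood at 11.5 ± 0.816 CPM for cervical and 20.8 ± 3.47 CPM for thoracic libraries (fitted log2 fold change -0.85, SE 0.13, edgeR adjusted p = 0.0249), higher in all 3 thoracic libraries. Robo2, an axon guidance receptor and the most abundant gene of that list, stood at 542 ± 23.8 and 429 ± 94.3 CPM in cervical and thoracic libraries (log2 fold change 0.34, edgeR adjusted p = 0.483).

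The mean profile of the 6 members with at least 5 CPM was set beside 11963 other genes of that level, by the root mean square difference of centred log2 values over the 6 libraries. The 5 nearest genes were Gm48369 at a difference of 0.05, the netrin receptor gene Unc5a at 0.06, Gbx2, a homeobox gene of the anterior hindbrain, at 0.08, Snhg4 at 0.08 and Hoxb6 at 0.09. Because these 5 genes were chosen for this likeness, a higher cervical level and a high thoracic replicate 1 follow from the choice and are no further result. Unc5a stood at 106, 95.7 and 97.6 CPM in cervical libraries and at 88.8, 63.8 and 55.4 CPM in thoracic ones. Of these 5 genes, Hoxb6 was called with region alone (edgeR adjusted p = 0.0301), against 0.191% of all genes called higher in cervical libraries. With the block Hoxb6 (edgeR adjusted p = 0.0009) and Unc5a (0.00592) passed, against 0.573% of all genes. Their calls are description only, given how the genes were chosen. Among the members, Hoxb3 lay nearest to their mean profile at 0.07 and Hoxd1 farthest at 0.40.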

How the data were processed

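RNA was purified with a kit for small samples, and stranded libraries depleted of ribosomal RNA were made from 10 to 20 ng with 15 PCR cycles, per the labels' protocols. The authors deposited whole-number read counts per gene with mm39 coordinates and exon lengths. FastQC 0.11.9, STAR 2.7.5b and featureCounts 2.0.1 appear, without roles, in the submitters' processing notes. Which annotation release and strand setting were used, the sources used here do not give.

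Counts were filtered (edgeR 4.0.16, R 4.3.3, minimum count 10), and scaled by TMM. Region was the only term of edgeR's quasi-likelihood test over 21972 genes, and calls used a threshold of 0.05 on the p adjusted after Benjamini and Hochberg. CPM values use TMM scaling. The test was run on simulated counts with known changes: fitted fold changes were close to those put in, most of the smallest changes were missed, and false calls took a larger share of all calls than the threshold allows, so calls close to the threshold are less firm than their adjusted p. Between libraries of 1 region the chi-square per degree of freedom was 10.1 to 16.2, above sampling noise, and each was counted as a separate sample. Replicate numbers come from the sample titles. Deviations from region means correlated at 0.207, 0.201 and 0.240 between libraries of replicate numbers 1, 2 and 3, each above the 0.1 set for pairing, so blocked values are given.

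Alternatives were DESeq2 size factors, library totals, no filter, a mean CPM of at least 1, DESeq2 1.42.0, limma-voom (limma 3.58.1), the replicate block and leaving out each library. Whole-gene CPM divided by the length of unshared exon bases was added after seeing the data. Ratios between paralogs used an exact permutation test over the 6 libraries (scipy 1.17.1). The genes named are the 7 members, genes that share their exons, the called genes with the smallest adjusted p and the most abundant gene of each list, and the 5 genes of most similar profile. Some genes that this rule names are not reported here. Single marker genes, the retinoic acid genes and the other Hox genes were named after their values were seen. The members and lists were chosen with earlier results of these data known. Promoter sequences are from RefSeq (GRCm38.p6), matched by symbol for 5 of the 7 genes. The genome build of that table differs from mm39, and no coordinates were converted.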

Additional observations from a re-analysis of the deposited data

How the results depend on the processing

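The call of 2 members held under DESeq2 size factors, library totals, a mean CPM of at least 1 and limma-voom. It was 4 with no low-count filter, with the DESeq2 Wald test and with the replicate block, and 0 to 3 over the 6 fits that left out a library. The number of genes called in all was 119, and 747 with no filter, 408 with DESeq2, 432 with the replicate block and 9 to 159 over the fits that left out a library. Hoxb3 was called with no filter (log2 fold change 0.49), with DESeq2 (0.49) and with the replicate block (0.51), and Hoxd3 in the same fits (0.39 in each). With no filter the edgeR adjusted p of Hoxa2 was 8.6e-23, against 0.0136 with the filter, at a log2 fold change of 1.08 in both. Calls of the fit with no filter are therefore not on the same footing as the others. Leaving out a library moved the log2 fold change of Hoxa2 between 0.96 and 1.29, of Hoxa3 between 0.51 and 0.73, of Hoxb3 between 0.41 and 0.65 and of Hoxd1 between -0.46 and 0.57. Hoxd1 changed sign without thoracic replicate 1 and with the replicate block (0.024). The cause was not tested. Over the 13 alternatives the fold change kept its sign for the other 6 genes, down to 0.017 for Hoxb1. Pairing the libraries by replicate number left the paralog ratios as they were and gave exact p of 0.25 to 0.75, where 0.25 is the smallest possible. Counts of 38 to 179 reads for Hoxb1 limit its precision.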
